A study of Schizosaccharomyces pombe with 20 samples.

Results

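Fission yeast genes with many introns were examined intron by intron. A gene was taken when its highest intron number on the array was 6 or more, which gave 564 introns in 80 gene identifiers, out of 4885 introns in 2369 gene identifiers on the array. The rule used only intron numbers and no measured value. Of these introns 77 were the first of their gene, 407 were internal and 80 were the last. Most of the genes sat at the edge of the rule, with 44 genes at a highest number of 6 and 72 genes just outside it at 5. The longest series belonged to trt1 with 15 introns, rdh54 with 14, clr6 with 13 and gem1 with 12, followed by icp55, trk2 and ppk26 with 11 each. A further 3 of the gene identifiers, with 7 introns between them, carried a prefix "n" of unstated meaning, and they were kept as genes of their own. Of these, nSPAC890.07c held 1 intron numbered 8 and nSPAPB18E9.01 held 1 numbered 7, while SPAC890.07c (rmt1) ended at intron 7 and SPAPB18E9.01 (trm5) at intron 6. If each pair is 1 gene, the last introns of rmt1 and trm5 counted here are internal.

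Introns are removed from pre-mRNA by the spliceosome, a large machine built from small nuclear RNAs and proteins that recognises the 5′ splice site, the branch point and the 3′ splice site of each intron. Introns of Schizosaccharomyces pombe are short, and many of its genes hold several of them, so that one transcript must pass through splicing repeatedly before it is mature. In a gene with many introns a splicing defect can leave a single intron behind or many introns of the same transcript.

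The arrays compared 12 haploid deletion strains of the Bioneer collection, each with 1 gene replaced by a KanR cassette, with the wild-type strain ED666 of the same collection. Cells grew in 25 ml of YES medium to an optical density of about 0.5, every array carried the deletion strain in Cy3 against wild type in Cy5, and there were 20 arrays, 2 separately grown replicates for 8 strains and 1 array for each of the other 4. The strains with 2 arrays lacked smd3, a core Sm protein of the spliceosomal snRNPs, aar2, a U5 snRNP factor, pwi1, a splicing coactivator, SPAC20H4.06c, related to human GPATCH1, ctr1 and SPAC18G6.13, which have been found in nuclear RNA silencing complexes, or ppn1 and ssu72, which belong to the 3′ end processing machinery. The strains with 1 array lacked SPCC162.01c, a putative tri-snRNP component, ash2 or swd1, subunits of a histone methyltransferase complex, or pht1, the histone variant H2A.Z. Since no dyes were swapped, a shift common to all arrays and an effect of the dye cannot be told apart.

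The array held 3 kinds of probe, and 2 of the identifiers with the prefix had no exon value. Intron probes measured pre-mRNA, probes across an exon–exon junction measured mature mRNA, and exon probes measured total mRNA, all as the log2 of deletion strain over wild type. The pre-mRNA to mature mRNA ratio, called the ratio from here on, was the intron value minus the value of the junction that forms when that intron leaves, on the same array. A junction of the same number was found for 540 of the 564 introns. Many values were missing: between 55 of the introns (Δpht1) and 557 of them (ΔSPCC162.01c) had a value on an array, the median intron had a value on 8 arrays, 30 had one on all 20 arrays, 206 on 5 or fewer and 4 on none. No source used here states why cells were left empty, so every count below is a count of what was measured. The number of arrays limits the precision of every value.

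The exon probe of the deleted gene was clearly low on 14 arrays, from −1.19 (Δpht1) to −6.45 (Δaar2) on the log2 scale. It lay within the range of the other arrays on both arrays labelled Δsmd3 (−0.51 and −0.93), on both labelled ΔSPAC18G6.13 (−0.41 and −0.26) and on Δctr1 replicate 2 (−0.87), and it was at 0.59 on the array labelled ΔSPCC162.01c, above the other arrays. These 6 arrays are written of by their labels, and the main counts and medians are also given without them.

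The introns of these genes had lower ratios than introns of genes with fewer introns. On all 20 arrays the median ratio over the measured introns was below that of genes with 2 to 5 introns, by between 0.06 and 0.34 log2 units with a median difference of −0.09, and below that of genes with a single intron, by up to 0.44 log2 units. On the arrays labelled Δsmd3 the medians were 0.68 and 0.59 for genes with 6 or more introns, 0.87 and 0.93 for genes with 2 to 5, and 1.01 and 1.04 for genes with 1. Genes with 6 or more introns were lowest on 14 of 14 arrays without the 6 arrays of doubtful label, while the order of the other 2 groups varied between arrays. They were also lowest on 20 of 20 arrays when only introns with a value on at least 15 arrays were used (107 introns against 886, median difference −0.17). No test was made of these medians, because the members were chosen as a group and the arrays share the strain ED666 and the dyes.

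**Figure D1:**
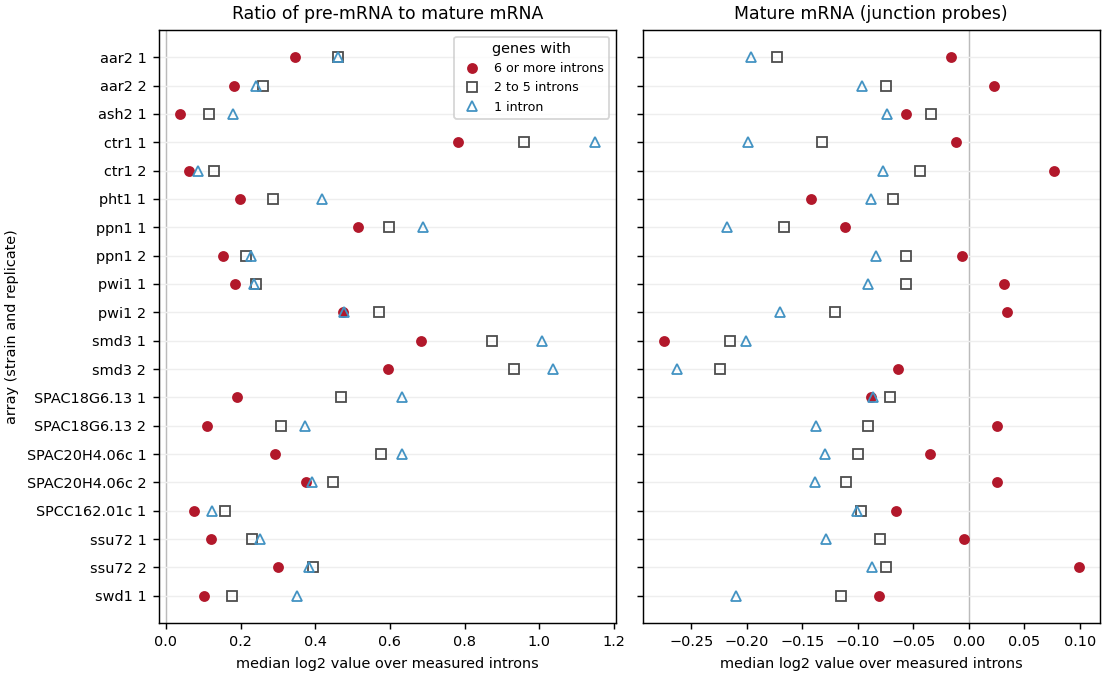
Median log2 ratio of pre-mRNA to mature mRNA (left) and median log2 value of the junction probes (right) on each of the 20 arrays, for introns of genes with 6 or more introns (filled circles), 2 to 5 introns (squares) and 1 intron (triangles). The filled circles lie leftmost on every array in the left panel, and right of the squares on 16 of 20 arrays in the right panel.

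The median junction value was higher than that of genes with 2 to 5 introns on 16 of 20 arrays, with a median difference of 0.08, and higher than that of single-intron genes on 17 of 20. The median intron value was lower than that of genes with 2 to 5 introns on 11 arrays and higher on 9, so the intron probes showed no common direction. Exon probes of these genes also had a median above that of all exon probes in each of the 8 strains with 2 arrays, for instance 0.13 against −0.01 in Δaar2, but not in Δash2 or Δpht1, where it was −0.02 against 0.02 and −0.07 against 0.01. The part of total mRNA in the lower ratio was not tested.

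Whether the ratio of a single intron differed from 0 in a strain was tested with limma over all introns measured on every array of the strain, with Benjamini-Hochberg adjustment over all of them. A call is an adjusted p under 0.05. Over the 8 strains with 2 arrays, 355 of the introns could be tested in at least 1 strain, and the strains gave 186 calls of a raised ratio and 6 of a lowered ratio, on 121 introns of 59 genes. In the arrays labelled Δsmd3, 86 of 175 tested introns were raised, which is 49.1%, where 61.6% of all introns tested were raised, and 3 were lowered where 0.217% of all were. For the arrays labelled ΔSPAC18G6.13, 30 of 144 were raised (all introns: 28.4%) and 1 was lowered (all introns: 1.22%). In Δctr1, 21 of 150 were raised (all introns: 23%) and 2 were lowered (all introns: 0.994%). On the arrays of these 3 labels the share of raised introns was below that of all introns.

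In Δpwi1, 26 of 164 were raised (all introns: 14.6%), and in Δppn1 8 of 103 (all introns: 14.7%). In ΔSPAC20H4.06c, 8 of 70 were raised (all introns: 16.9%), and in Δaar2 7 of 312 (all introns: 3.67%), where 0 were lowered (all introns: 0.0357%, with 2 of these introns lowered at an unadjusted p under 0.05). In Δssu72 limma called 0 of 115 introns raised (all introns: 0%), with 11 raised at an unadjusted p under 0.05. In the 4 strains with 1 array, which have no replicate of their own and borrow the spread of the others, 0 of the introns were raised after adjustment, with 0 raised at an unadjusted p under 0.05 in Δash2, 5 in Δpht1, 6 in the array labelled ΔSPCC162.01c and 3 in Δswd1. All introns gave 0% in those strains except in Δpht1, where 0.54% were raised.

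These counts depended on the arrays in the fit. Without the 6 arrays of doubtful label raised introns numbered 55 in Δaar2 (17.6%, all introns: 22.7%), 53 in Δpwi1 (32.3%, all introns: 31.3%), 24 in Δppn1 (23.3%, all introns: 33.5%) and 22 in ΔSPAC20H4.06c (31.4%, all introns: 39.9%). In Δctr1 they then numbered 101 of 214 from replicate 1 alone (47.2%, all introns: 53.7%). When each array was centred on the median of all introns, the arrays labelled Δsmd3 gave 31 raised (17.7%, all introns: 24.3%) and 33 lowered introns (18.9%, all introns: 12.4%) in place of 86 and 3. Those labelled ΔSPAC18G6.13 gave 19 raised (13.2%, all introns: 21.6%) and 16 of 144 lowered (all introns: 7.11%). After subtraction of the other strains' mean from each intron, which removes what all arrays share, 59 of 174 introns were raised in the arrays labelled Δsmd3 (33.9%, all introns: 40.8%), 7 in Δpwi1 (all introns: 2.64%), 3 in ΔSPAC20H4.06c (all introns: 1.62%), 1 in the arrays labelled ΔSPAC18G6.13 (all introns: 2.88%) and 0 in Δaar2, Δctr1 and Δppn1, where 0 of all introns were. Of 38 results of an intron in a strain that are named here as the largest changes or departures, in which some introns count more than once, 30 lost their call when 1 of the 2 arrays was left out, and 17 kept it under every other fit that could be made.

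The gene with the most calls was osh41, which encodes a protein of the oxysterol-binding family. Its 6 introns gave 15 calls on 4 introns in 6 strains, all of them rises. Intron 5 had a ratio above 0 on 20 of 20 arrays, from 0.02 on Δssu72 replicate 1 through a median of 1.16 to 2.85 on Δctr1 replicate 1. It reached 2.28 and 2.67 in the arrays labelled Δsmd3, 2.18 and 1.57 in Δaar2, 1.72 and 1.65 in Δpwi1, and 1.69 and 0.95 in Δppn1. The arrays of Δssu72, Δash2, Δswd1, Δpht1 and SPCC162.01c all lay below 0.45, and below every array of Δaar2, Δpwi1, Δppn1 and the arrays labelled Δsmd3. Δctr1, which was also called, is not part of this contrast because its 2 arrays differed widely. Replicate 1 was at 2.85, while no osh41 intron had a mean above 1.63 over the 2 arrays. The arrays labelled ΔSPAC18G6.13, where intron 5 was also called, and ΔSPAC20H4.06c, where it was not, are not part of the contrast either. The contrast was not tested. The mean rise of intron 5 was 2.47 ± 0.40 (SE, n = 2; limma adjusted p = 0.00015) in the arrays labelled Δsmd3 and 1.88 ± 0.40 (n = 2; limma adjusted p = 0.033) in Δaar2, where the call was lost under trend and robust moderation of the spread (adjusted p = 0.084) and after subtraction of the other strains' mean (adjusted p = 0.96).

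Intron 3 of osh41 behaved like intron 5, with a median of 1.22 and a highest value of 2.43 on Δctr1 replicate 1, and was raised in 5 strains. Intron 4, which lies between them, was measured on the same 20 arrays and had a median of 0.32, with values below 0 on 4 arrays. It was raised only in the arrays labelled Δsmd3 (1.49 and 0.63, mean 1.06 ± 0.30, limma adjusted p = 0.0068). Intron 2 had a median of 0.77 over 17 arrays and intron 1 a median of 0.10 over 13 arrays. The medians of introns 3 and 5 were thus the highest of the gene among introns measured on 13 or more arrays, and those of introns 1 and 4 the lowest.

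**Figure D2:**
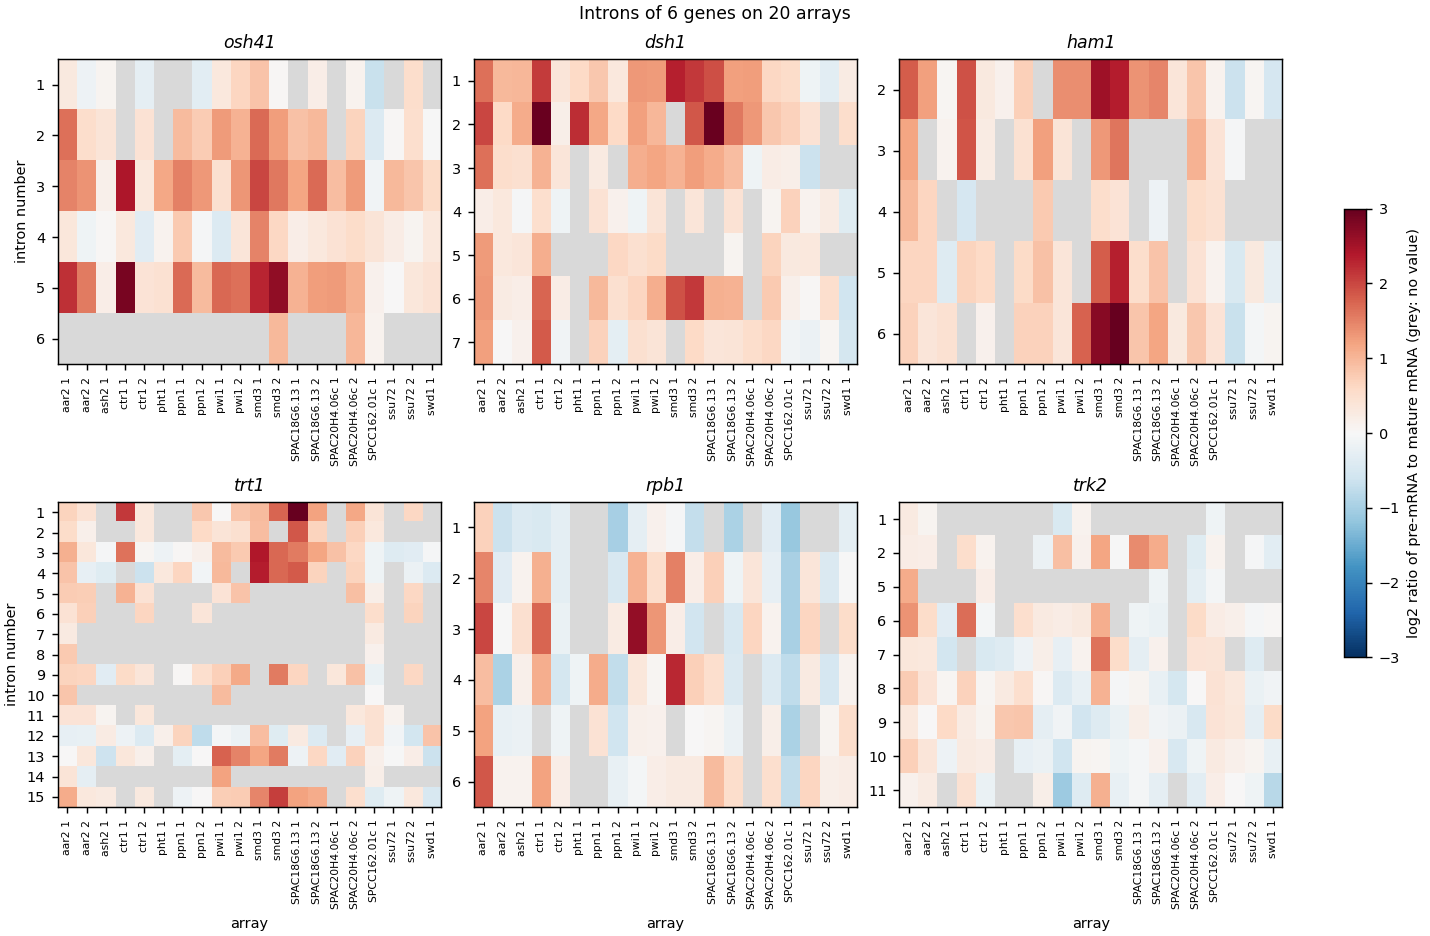
Log2 ratio of pre-mRNA to mature mRNA for every intron with a value (rows, by intron number) on 20 arrays (columns, strain and replicate), for osh41, dsh1, ham1, trt1, rpb1 and trk2. Red is above 0, blue below 0 and grey has no value; osh41 introns 3 and 5 are red on nearly all arrays, while intron 4 between them has a median of 0.32 and a highest value of 1.49.

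The gene trt1, for the reverse transcriptase subunit of telomerase, has the most introns of all, and 7 of its 15 introns gave 12 calls, all rises, in 3 strains. Introns 3, 4 and 15 rose in the arrays labelled Δsmd3 (2.07 ± 0.32, 2.04 ± 0.37 and 1.78 ± 0.27, n = 2) and again in those labelled ΔSPAC18G6.13 (1.37 ± 0.32, 1.25 ± 0.37 and 1.17 ± 0.27). Intron 1 was raised under both labels too, and the highest value on the 12 arrays other than those labelled ΔSPAC18G6.13 was 2.11. It stood at 3.50 and 1.20 in the arrays labelled ΔSPAC18G6.13, against a median of 0.83 over 14 arrays (mean 2.35 ± 0.51, limma adjusted p = 0.005). That call was lost after the same subtraction, as were those of dsh1 intron 2 and paa1 intron 2 on these arrays. In Δpwi1 the raised introns were 9 and 13, and intron 13 stood at 1.77 and 1.48 there (mean 1.63 ± 0.28, limma adjusted p = 0.0016) while intron 1 stood at 0.00 and 0.84. Intron 12, measured on 19 arrays, had a median of −0.15 and was called in no strain. Introns 7, 8 and 10 had values on 2 or 3 arrays only.

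The gene dsh1, for a protein of the RNA interference machinery, gave 11 calls on 4 of 7 introns in 4 strains. Intron 1 was above 0 on 18 of 20 arrays and stood at 2.34 and 2.12 in the arrays labelled Δsmd3 (mean 2.23 ± 0.35, limma adjusted p = 0.00011). Intron 2 stood at 2.98 and 1.58 in the arrays labelled ΔSPAC18G6.13 (mean 2.28 ± 0.53, limma adjusted p = 0.0065), and it was at 2.97 and 0.18 on the 2 arrays of Δctr1. Intron 4 had a median of 0.22 over 16 arrays with a highest value of 0.69, and was called in no strain.

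In ham1, for a nucleoside triphosphate pyrophosphatase that clears non-standard nucleotides, 4 introns gave 10 calls in 5 strains. Intron 6, the last, stood at 2.722 and 2.997 in the arrays labelled Δsmd3, above all of the other 16 arrays, whose highest value was 1.78 on Δpwi1 replicate 2. Its mean rise was 2.86 ± 0.32 (n = 2; limma adjusted p = 1.5e-05), from 2.11 and 2.16 for the intron probe and −0.61 and −0.84 for the junction. Intron 2 rose in 5 strains, with 1.81 and 1.23 in Δaar2 and 1.39 and 1.40 in Δpwi1. Intron 4 stood at 0.52 and 0.41 in the arrays labelled Δsmd3, which was 1.80 ± 0.26 below the other introns of ham1 (limma adjusted p = 0.00058). The next most calls were 6 on 4 introns, in 3 genes. One was ppk26, for a protein kinase, whose intron 5 stood at 2.13 and 1.75 in ΔSPAC20H4.06c (mean 1.94 ± 0.38, limma adjusted p = 0.0063) against a median of 0.11 over 20 arrays. That intron was also raised in the arrays labelled Δsmd3, and its highest value, 2.31, was on replicate 1 of them.

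The largest rises of single introns were in Δpwi1. Intron 3 of icp55, a mitochondrial aminopeptidase gene with 11 introns, stood at 3.38 and 3.67 in Δpwi1, while the other 16 arrays lay between −0.75 and 0.68. The mean was 3.52 ± 0.26 (n = 2; limma adjusted p = 9.1e-07), with the intron probe up (1.27 and 1.61) and the junction down (−2.11 and −2.07). Intron 6 of icp55 stood at 3.19 on Δpwi1 replicate 1, the only array of that strain with a value, against at most 0.76 on 6 other arrays. The 6 other icp55 introns with a value in Δpwi1 lay between 0.04 and 1.11.

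Intron 5 of twf1, the twinfilin gene, stood at 3.49 and 2.87 in Δpwi1 and between −0.18 and 0.47 on the 8 other arrays (mean 3.18 ± 0.30, n = 2, limma adjusted p = 0.00014). Its intron probe carried the rise (3.37 and 2.98), and its junction stood at −0.12 and 0.12. A different intron of the same gene stood out in ΔSPAC20H4.06c, where intron 3 was at 1.98 and 2.23, above the 14 other arrays (mean 2.11 ± 0.25, limma adjusted p = 0.0019). Intron 6 of chk1, the DNA damage checkpoint kinase, stood at 2.71 and 2.18 in Δpwi1 (mean 2.44 ± 0.31, limma adjusted p = 0.00036) and at −2.08 and −0.97 in the arrays labelled ΔSPAC18G6.13 (mean −1.52 ± 0.31, limma adjusted p = 0.0046). No other chk1 intron exceeded 0.64 in Δpwi1. The rise of chk1 intron 6 was no longer called without Δpwi1 replicate 1, and its fall without replicate 1 of the arrays labelled ΔSPAC18G6.13.

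**Figure D3:**
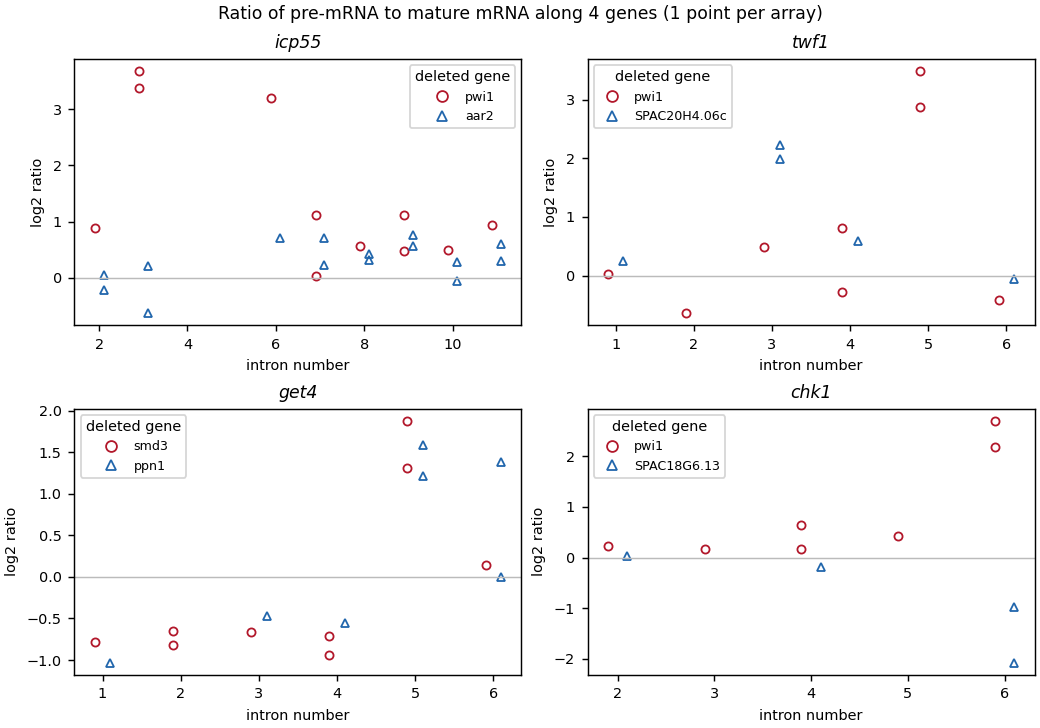
Log2 ratio of pre-mRNA to mature mRNA by intron number in icp55, twf1, get4 and chk1, for 2 strains per gene, 1 point per array with a value. Single introns stand far from their neighbours: icp55 introns 3 and 6, twf1 intron 5 and chk1 intron 6 in Δpwi1, twf1 intron 3 in ΔSPAC20H4.06c, and get4 intron 5 in the arrays labelled Δsmd3. On Δppn1 replicate 1 get4 intron 5 was at 1.58 and intron 6 next to it at 1.38.

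In Δctr1 the 2 arrays differed widely, and replicate 2 is one of the arrays of doubtful label. Intron 5 of nbs1, which encodes a subunit of the MRN complex of DNA repair, stood at 3.25 and 0.82 (mean 2.04 ± 0.53, n = 2, limma adjusted p = 0.03). Introns 5 and 6 of rmt1, an arginine methyltransferase gene, stood at 2.83 and 1.19 and at 2.83 and 0.92. Intron 5 of rmt1 was above 0 on 17 of 17 arrays, with a median of 1.36, and was also raised in Δaar2 (1.97 and 1.36) and in Δppn1 (1.66 and 1.39). The lowered introns were intron 6 of bet4, for a prenyltransferase subunit, at −2.25 and −0.58 (mean −1.41 ± 0.44, limma adjusted p = 0.04), and intron 2 of cdc24, a DNA replication gene in this yeast, at −1.12 and −1.07 (mean −1.10 ± 0.26, limma adjusted p = 0.024). The 2 arrays reached that cdc24 ratio differently, with the intron probe at −0.88 and 0.13 and the junction at 0.24 and 1.20. All 5 of these Δctr1 calls were lost in a fit of the 2 Δctr1 arrays alone, after subtraction of the other strains' mean, and without replicate 1, which carried the larger values.

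In Δppn1, introns 5 of rmt1, 3 of osh41 (1.52 and 1.29) and 5 of get4 (1.58 and 1.22, mean 1.40 ± 0.32, limma adjusted p = 0.016) led, and all 3 calls were lost after subtraction of the other strains' mean. The gene get4 encodes a factor of tail-anchored protein insertion, and its intron 5 was also at 1.88 and 1.31 in the arrays labelled Δsmd3, while intron 4 next to it stood at −0.94 and −0.71 there (mean −0.83 ± 0.26, limma adjusted p = 0.016). The exon probe of get4 was raised on the same arrays (0.62 and 0.97). The largest fall in the arrays labelled Δsmd3 was intron 2 of zas1, a transcription factor gene, at −1.25 and −0.89 (mean −1.07 ± 0.32, limma adjusted p = 0.01), with a raised junction (0.96 and 0.66) and a raised exon probe (1.082 and 0.795). Beside ham1, the largest rises there were intron 2 of paa1, for a protein phosphatase 2A subunit, at 2.45 and 2.58, and intron 5 of atg7, for an autophagy enzyme, at 2.47 and 2.51. Intron 2 of paa1 also stood at 2.01 and 1.73 in the arrays labelled ΔSPAC18G6.13 and was raised in Δctr1 too. Its highest value, 2.99, was on an array with neither the Δsmd3 nor the ΔSPAC18G6.13 label. Intron 5 of ate1, for an arginyltransferase, stood at 1.93 and 1.88 in ΔSPAC20H4.06c.

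Among genes with at least 3 introns tested in a strain, all tested introns rose in 3 of 26 genes in the arrays labelled Δsmd3 (11.5%) and some rose in 20, where genes with 3 to 5 introns had all raised in 34 of 89 (38.2%) and some in 46. In Δpwi1 0 of 24 genes had all and 10 had some (genes with 3 to 5 introns: 1 and 28 of 61), and in Δctr1 0 of 23 had all and 11 had some (1 and 29 of 52). In ΔSPAC20H4.06c 1 of 7 genes had all and 1 had some (2 and 6 of 14). A gene with more introns tested has more chances to miss a call, so these shares are a description. The median spread between the highest and lowest intron of a gene was 1.59 log2 units in the arrays labelled Δsmd3, 1.15 in Δctr1, 0.92 in Δpwi1 and 0.52 in Δssu72. The widest spread was 2.95 log2 units, in icp55 in Δpwi1.

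Each intron was then set against the median of the other introns of its gene on the same array, which takes out a shift common to the gene or the array. In the arrays labelled Δsmd3, 26 of 128 introns stood above their gene (16.4% of all introns of genes with 3 or more introns) and 15 below (11.4%). In Δpwi1 9 of 113 stood above (all: 6.65%) and 3 below (all: 5.06%), and in Δctr1 6 of 114 stood above (all: 5%) and 6 below (all: 4.33%). In the arrays labelled ΔSPAC18G6.13 6 of 98 stood above (all: 9.57%) and 8 below (all: 8.51%), and in Δaar2 2 of 297 above (all: 1.78%) and 4 below (all: 1.09%). In Δppn1 1 of 48 stood above (all: 1.67%) and in ΔSPAC20H4.06c 1 of 23 (all: 2.9%), and limma called 0 of 67 in Δssu72, with 1 above and 1 below at an unadjusted p under 0.05. Counts above and below are linked, since an intron enters the medians of its neighbours.

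A few introns departed from their gene in several strains. Intron 5 of osh41 stood above its gene by 1.32 ± 0.29 in Δaar2, 0.93 ± 0.29 in Δctr1, 1.07 ± 0.29 in Δpwi1 and 1.19 ± 0.29 in the arrays labelled Δsmd3, and intron 4 stood below by 1.16 ± 0.30 in Δaar2, 1.51 ± 0.30 in Δctr1 and 1.05 ± 0.30 in Δpwi1 (all n = 2, limma adjusted p between 0.0047 and 0.047). Intron 4 of cds1, the replication checkpoint kinase gene, stood above its gene by 1.10 ± 0.26 in Δaar2, 1.86 ± 0.26 in Δpwi1 and 1.58 ± 0.26 in the arrays labelled Δsmd3, and its intron 2 stood below by 1.02 ± 0.25 in Δpwi1 and 1.17 ± 0.25 in the arrays labelled Δsmd3. Intron 2 of hrb1, an RNA-binding protein gene, stood below its gene by 1.97 ± 0.37 in Δctr1 and 1.47 ± 0.37 in Δaar2. The departures of hrb1 intron 2, and that of osh41 intron 5 in Δaar2, lost their calls under trend and robust moderation. The cds1 introns were named after their values were seen.

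The largest departures in Δpwi1 were twf1 intron 5 (3.77 and 2.37 above its gene, mean 3.07 ± 0.34, limma adjusted p = 3.2e-05) and, downward, nse4 intron 3 of a Smc5-6 complex gene (−0.85 and −1.29). For the arrays labelled Δsmd3 get4 intron 5 stood 2.664 and 1.998 above its gene (mean 2.33 ± 0.28, limma adjusted p = 0.00025). On the arrays labelled ΔSPAC18G6.13 gih35 intron 6 stood 3.21 and 0.97 above and trt1 intron 12 1.29 and 1.30 below its gene. In ΔSPAC20H4.06c ppk26 intron 5 stood 2.27 and 1.61 above (mean 1.94 ± 0.28, limma adjusted p = 6.9e-05). SPBC582.11c intron 1 stood 1.91 and 1.22 above its gene in Δppn1, and it was also above its gene on 5 of the 6 other arrays, by up to 2.77. In Δctr1 cdc24 intron 4 stood 4.35 above its gene on replicate 1 and 0.33 on replicate 2. The departures of get4 intron 5, ham1 intron 4 and SPBC582.11c intron 1 were not called from the strain's own 2 arrays alone, and that of cdc24 intron 4 was not called under trend and robust moderation.

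The study sorted introns into terminal and nonterminal ones for Δppn1 and Δssu72, because 3′ end factors can help to recognise a terminal intron. It reported no obvious difference in pre-mRNA increases between the kinds of intron in either strain. That comparison used pre-mRNA levels, set last introns against all others and covered multi-intron genes in general. The values below use the ratio, cover only the genes with many introns examined here, and mostly set last against first introns. They are therefore not a test of that result. The median ratio of last introns was above that of first introns on 14 of 20 arrays, with differences from −0.49 to 0.93 log2 units and a median of 0.08, and on 11 of 14 arrays without those of doubtful label. Last introns exceeded internal introns on 12 of 20 arrays, and internal introns exceeded first introns on 15. These medians compare different genes. Within the genes that had both introns measured, the median difference of last minus first was above 0 on 9 of 19 arrays and below 0 on 10. By strain the medians for first, internal and last introns were 0.08, 0.28 and 0.27 in Δaar2, 0.24, 0.32 and 0.36 in Δppn1, and 0.16, 0.22 and 0.20 in Δssu72. Within genes the median in Δppn1 was −0.67 over 2 genes on replicate 1 and 0.01 over 19 genes on replicate 2, and in Δssu72 it was −0.03 over 5 genes and 0.24 over 10, so the arrays of each strain differed in sign. In Δaar2 it was 0.30 over 49 genes and 0.16 over 24. Last introns had the lowest median in the arrays labelled ΔSPAC18G6.13, with 0.32, 0.15 and −0.02, and did so on both of them. In Δctr1 they had the lowest median on replicate 1 (0.78, 0.83 and 0.43) and the highest on replicate 2 (0.05, 0.06 and 0.09). First, internal and last introns were also measured unequally, with a value on at least 15 arrays for 19.5%, 25.6% and 16.2% of them, and no test was made of these medians.

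**Figure D4:**
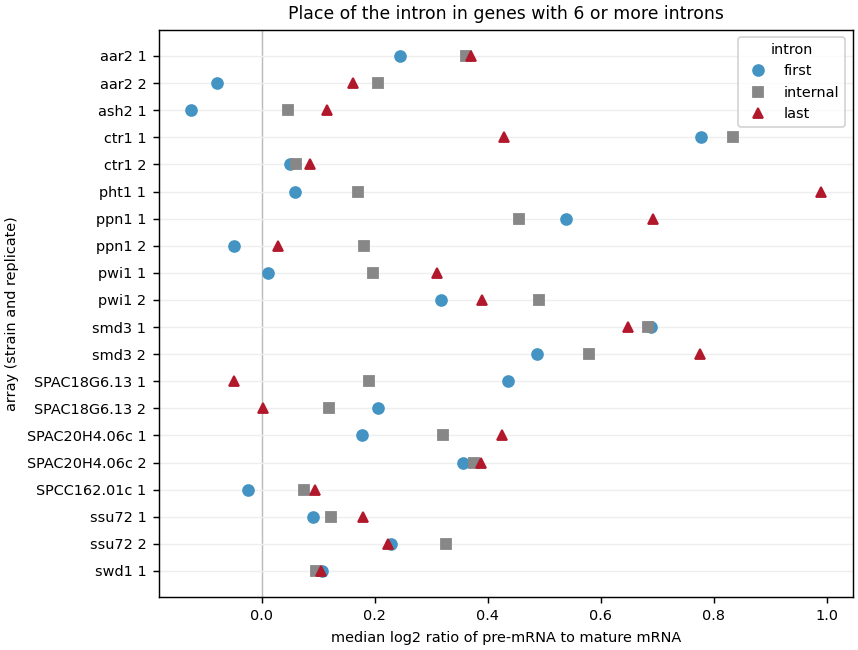
Median log2 ratio of pre-mRNA to mature mRNA over first (circles), internal (squares) and last (triangles) introns of genes with 6 or more introns, on each of the 20 arrays. Last introns lie right of first introns on 14 of 20 arrays, and left of them on both arrays labelled ΔSPAC18G6.13; the last introns of Δpht1 rest on 1 value.

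Within one gene the last intron was compared with the first by limma over all genes with 2 or more introns. Few of the 80 genes had both introns measured on both arrays, and the calls went both ways. The last intron stood above the first in 2 of 21 genes in Δaar2 (7.87% of all genes tested) and 1 of 5 in Δctr1 (12.8% of all). It stood below the first in 1 of 6 genes in Δpwi1 (5.56% of all), 2 of 7 in the arrays labelled Δsmd3 (13.9% of all) and 2 of 5 in those labelled ΔSPAC18G6.13 (10.3% of all). In Δppn1 and Δssu72 only 2 and 3 genes could be tested, and limma called 0 of them (all genes: 8.51% above and 6.38% below in Δppn1, 0.84% above and 1.68% below in Δssu72), with 0 also at an unadjusted p under 0.05.

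In mis4, for a loader of cohesin, the first intron stood at 1.77 and 1.79 and the last at −0.29 and −0.41 in Δpwi1, a difference of −2.13 ± 0.33 (n = 2, limma adjusted p = 0.00013). In twf1 the last intron was below the first by 1.46 ± 0.37 in the arrays labelled Δsmd3 (limma adjusted p = 0.0048), and in dsh1 by 1.21 ± 0.31 in those labelled ΔSPAC18G6.13 (limma adjusted p = 0.0078). Upward differences were 1.25 ± 0.33 in srp2, an SR protein gene, in Δaar2 (1.57 and 0.93, limma adjusted p = 0.024) and 1.07 ± 0.34 in rpb1, for the largest subunit of RNA polymerase II, in Δctr1 (1.65 and 0.49, limma adjusted p = 0.032). The COP9 signalosome gene csn3 was also called in Δaar2 (0.76 and 1.37, mean 1.07 ± 0.33), with a limma adjusted p of 0.05 after rounding, at the threshold, and its last intron, intron 6, was above 0 on 20 of 20 arrays with a median of 0.95.

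Over the arrays, introns of one gene moved together more closely than introns of different genes. For pairs with at least 10 shared arrays the median Pearson r of the ratio was 0.49 within a gene (274 pairs in 47 genes) and 0.18 between genes (18461 pairs). For the intron probes it was 0.51 (349 pairs) against 0.20, and for the junctions 0.62 (1543 pairs) against 0.09. Agreement fell with distance along the gene, from 0.60 for adjacent introns to 0.47 for introns 2 apart and 0.46 for those 3 or more apart for the ratio, and from 0.72 to 0.67 to 0.54 for the junctions. All points share the reference strain, the array and the dyes, and a change in the level of a whole transcript moves all its probes, so these values are a description. Without the 6 arrays of doubtful label r for the ratio was 0.54 within a gene and 0.20 between genes. With the array's median taken off, it was 0.34 within a gene and 0.00 between genes.

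**Figure D5:**
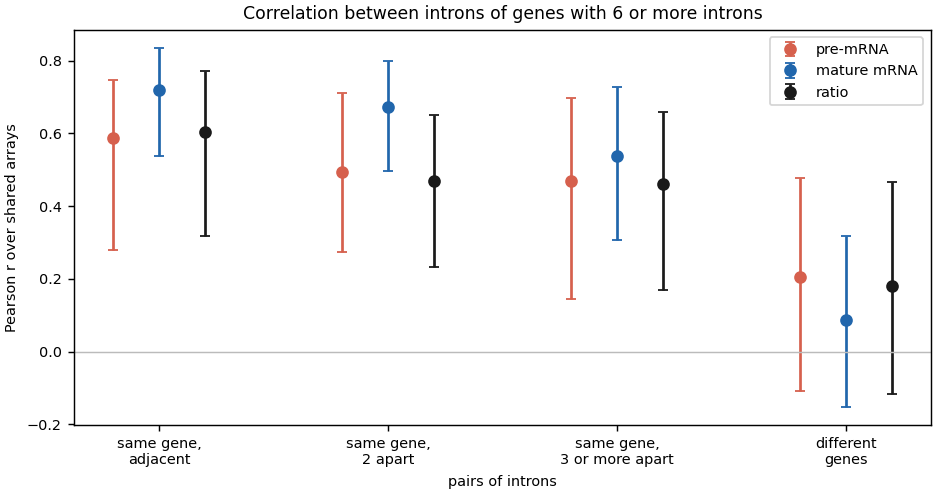
Median Pearson r over shared arrays (points) with the quartiles over pairs (bars), for pairs of introns of one gene by their distance in intron numbers and for pairs from different genes, from intron probes, junction probes and their ratio. Junctions of one gene agree best, at 0.72 for neighbours, and pairs from different genes have medians of 0.20, 0.09 and 0.18.

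Single genes spanned a wide range of agreement. In 6 of the 7 genes with at least 4 introns measured on 15 or more arrays, the median r between introns was 0.66 in rpb1, 0.64 in dsh1, 0.58 in trt1, 0.52 in osh41, 0.38 in srp2 and 0.22 in trk2, for a potassium transporter. In rpb1 all 15 pairs lay between 0.40 and 0.88, and its introns were all low on the array labelled ΔSPCC162.01c (from −1.13 to −0.75), where the exon probe of rpb1 stood at 1.07. They were all above 0 on Δaar2 replicate 1 (from 0.69 to 2.01), and between −0.96 and 0.11 on Δaar2 replicate 2. The rpb1 exon probe was higher on replicate 2 than on replicate 1 in each of the 8 strains with 2 arrays. It stood at 0.45 and 1.06 in Δaar2 and at 0.08 and 0.925 in Δpwi1, so the high value was not particular to the array labelled ΔSPCC162.01c. In trt1 introns 3 and 4 correlated at 0.91 and introns 3 and 15 at 0.89, whereas intron 12 correlated with intron 9 at −0.56. In trk2 intron 9 correlated at −0.45 with intron 7, and introns 8 and 11 at 0.86.

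Raised intron probes, that is raised pre-mRNA, numbered 78 of 205 in the arrays labelled Δsmd3 (all introns: 50%), 50 of 179 in Δctr1 (23.7%), 33 of 187 in Δpwi1 (11.4%), 23 of 171 in those labelled ΔSPAC18G6.13 (23.5%), 16 of 89 in ΔSPAC20H4.06c (14.8%), 14 of 348 in Δaar2 (3.8%), 9 of 128 in Δppn1 (15.2%) and 1 of 134 in Δssu72 (2.54%). Lowered intron probes were few, with 4 in Δppn1 (0.645%), 4 in the arrays labelled ΔSPAC18G6.13 (1.55%), 2 in those labelled Δsmd3 (0.649%) and 2 in Δctr1 (2.95%). On the 1 array of Δpht1 limma called 0 of 55 raised (1.92%) and 0 lowered (0.822%), with 2 and 3 at an unadjusted p under 0.05. It called 0 lowered in ΔSPAC20H4.06c (0.19%) and Δssu72 (0.0635%), with 0 in both at an unadjusted p under 0.05. On the arrays labelled Δsmd3 102 of 455 junctions were lowered (all junctions: 20.9%) and 16 raised (2.16%). Elsewhere the most lowered junctions were the 20 of 438 on the 1 array of Δpht1 (4.55%). The exon probe of rsd1 was above 0 on 20 of 20 arrays, from 0.09 through a median of 0.79 to 1.21, and passed the test in Δctr1, Δppn1, Δpht1 and the arrays labelled ΔSPAC18G6.13. A shift shared by all arrays cannot be told apart from a dye effect. That gene was named after its values were seen.

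In rdh54, a recombination gene, no intron was called. Medians were above 0 for introns 1 to 6 and 8 to 10, each measured on 1 to 6 arrays, and below 0 for intron 7 (−0.20, with 2 of 8 values above 0) and introns 11 to 14, the last at −0.32 with 1 of 11 values above 0. In clr6, for a histone deacetylase, introns 4 and 12 rose in the arrays labelled Δsmd3 (1.06 ± 0.29 and 1.49 ± 0.31) and intron 5 in ΔSPAC20H4.06c (1.25 ± 0.35). In gem1, for a mitochondrial GTPase, 1 intron of 12 was called: intron 2, raised in Δpwi1 (1.26 and 0.99), in the arrays labelled Δsmd3 (1.99 and 1.97) and in those labelled ΔSPAC18G6.13 (1.83 and 0.91). The exon probe of gem1 was lowered in the arrays labelled Δsmd3 (−0.72 and −0.59). In SPBP19A11.07c, a gene with 8 introns that the study names, only intron 8 was called, at 0.84 ± 0.31 in the arrays labelled Δsmd3 (limma adjusted p = 0.037).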

How the data were processed

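Log2 ratios of deletion strain (Cy3) over wild type (Cy5) were taken as deposited by the authors, in 2 tables that held the same 304160 cells. The sources used here give neither the scanner, background correction and normalization nor the centring and the rule for empty cells. Array medians lay near 0, and the deleted genes' exon probes gave the direction. Log2 values of intron and consecutive junction probes were subtracted per array. Limma 3.58.1 (R 4.3.3; lmFit and eBayes, 1 mean per strain over 20 arrays) tested each strain against 0, with Benjamini-Hochberg adjustment over all features measured on every array of the strain. The scripts were tested on simulated data with independent noise, which held no shift shared within an array and so did not cover that feature of the arrays. Replicates were separate cultures, at most 2 per strain, and 4 strains had 1. No columns were left unused. The same-numbered arrays were not taken as pairs.

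Named introns and genes were, per strain with 2 arrays, the 3 largest rises and 2 largest falls past the test with 1 sign on both arrays and the largest departure each way from the other introns of the gene, then the 5 genes with the most introns, the 5 with the most calls, the 4 with the highest and the 4 with the lowest agreement (at least 4 introns on 15 or more arrays), and the 3 largest differences between last and first intron each way, and any of the genes that the study names. Members and lists were chosen with earlier results of these data known. The alternative using introns with a value on at least 15 arrays was chosen after seeing the data. Of the 80 identifiers 74 matched the RefSeq table (assembly ASM294v3), which gave 73 symbols. It holds no product names, so gene lists by keyword were not used, and roles are background knowledge. Sequences and coordinates were not used here. One gene that met the naming rule is not reported here.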

Additional observations from a re-analysis of the deposited data

Results flagged for a closer look

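Intron 6 of chk1 was called in opposite directions in 2 strains, at 2.44 in Δpwi1 and −1.52 in the arrays labelled ΔSPAC18G6.13, a difference of 3.967 ± 0.44 log2 units (limma contrast over 1183 introns, adjusted p = 0.00026). Intron 2 of cdc24 was raised in the arrays labelled Δsmd3 (1.06) and lowered in Δctr1 (−1.10), a difference of 2.152 ± 0.37 log2 units (limma contrast over 1203 introns, adjusted p = 0.0063). In Δctr1 its intron probe stood at −0.88 and 0.13 and its junction at 0.24 and 1.20, so pre-mRNA itself was not lower on both arrays. Both differences rest in part on arrays of doubtful label, and both introns were picked for their opposite calls.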

How the results depend on the processing

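Counts of raised introns moved most, and the percent after each count is the share raised among all introns. Counts in this section of lowered introns, of departures from the gene and of last against first introns carry no such share unless one is given. They show how the fits moved and not a trait of these genes. From only the arrays of the strain they were 19 of 312 in Δaar2 (282 of 2803 of all introns), 0 of 150 in Δctr1 (0.186%), 5 of 103 in Δppn1 (8.93%), 47 of 164 in Δpwi1 (27.7%), 28 of 70 in ΔSPAC20H4.06c (51.8%) and 12 of 115 in Δssu72 (15%). The numbers tested were the same under the other alternatives unless given. Without the 6 arrays of doubtful label they were 55 in Δaar2 (22.7%), 101 of 214 in Δctr1 (53.7%), 4 of 40 in Δpht1 (8.09%), 24 in Δppn1 (33.5%), 53 in Δpwi1 (31.3%), 22 in ΔSPAC20H4.06c (39.9%), 3 in Δssu72 (7.71%) and 1 of 117 in Δswd1 (1.32%). Over the strains left, lowered introns then numbered 13, last introns above the first 1 and below it 3. Introns above their gene numbered 69 and below it 65. The main fit gave 6, 3, 5, 51 and 36 for these, but its totals also cover smd3, SPAC18G6.13 and SPCC162.01c. Of its 6 lowered introns, 3 were for smd3 and 1 for SPAC18G6.13. The totals of the 2 fits therefore cover different strains and were not compared. Δctr1 also enters the smaller fit with replicate 1 alone. Trend and robust moderation gave 0 raised in Δaar2 (0%) and 2 in Δppn1 (9.28%). Centring each array gave 2 in Δaar2 (0.821%), 3 in Δctr1 (1.49%), 2 in Δppn1 (5.58%), 14 in Δpwi1 (7.24%), 31 for smd3 (24.3%), 19 for SPAC18G6.13 (21.6%) and 4 in ΔSPAC20H4.06c (3.36%), with 57 lowered. Most of the lowered introns were the 33 for smd3 (12.4% of all introns lowered) and the 16 for SPAC18G6.13 (7.11% of all introns lowered). After subtraction of the other strains' mean, whose own error is ignored, raised introns were 0 of 293 in Δaar2, 0 of 149 in Δctr1 and 0 in Δppn1 (0% each), 7 of 163 in Δpwi1 (2.64%), 59 of 174 for smd3 (40.8%), 1 for SPAC18G6.13 (2.88%) and 3 in ΔSPAC20H4.06c (1.62%), with 3 lowered. The lowered introns were 2 for smd3 (0.711% of all introns lowered) and 1 for SPAC18G6.13 (0.384%). The 19 introns with a ratio on all 20 arrays gave 7 raised in Δctr1 (44.9%), 3 in Δppn1 (18.5%), 3 in Δpwi1 (27.2%), 10 for smd3 (71.7%), 5 for SPAC18G6.13 (38.8%) and 4 in ΔSPAC20H4.06c (22.1%), with 1 lowered, for smd3 (0.362% of all introns lowered). Of the tested introns of genes with 7 or more introns, 9.33% were raised in Δctr1 and 3.92% in Δppn1. The shares were 14% and 7.77% for genes with 6 or more introns, and 23% and 14.7% for all introns. The causes were not tested.

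Arrays that share a replicate number share nothing else in the labels, and deviations of same-numbered arrays correlated at 0.05 to 0.63 over 28 pairs of strains, 27 of them over 0.1. With the replicate number as a block, 18 introns were raised in Δaar2 (8.06%), 37 in Δctr1 (31.6%), 16 in ΔSPAC20H4.06c (23.4%), 1 in Δssu72 (0.222%) and 1 in Δswd1 (0.0775%), 14 were lowered over all strains and 22 stood below their gene. With 1 array of a strain left out, the remaining array taken to vary as the other strains do, raised introns ranged from 0 to 0 in Δaar2, ΔSPAC20H4.06c and Δssu72, 0 to 96 in Δctr1, 0 to 3 in Δppn1, 5 to 6 in Δpwi1, 62 to 66 for smd3 and 0 to 13 for SPAC18G6.13. Over all strains lowered introns ranged from 3 to 13, last introns above the first from 1 to 5 and below it from 3 to 7, introns above their gene from 44 to 79 and below it from 28 to 65. The 96 in Δctr1 came without replicate 2.

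Agreement of intron probes within a gene was 0.67 without the doubtful arrays, 0.65 over pairs sharing all 20 arrays and 0.37 with the array's median taken off, and 0.052 between genes in the last case. For the ratio it was then 0.34 within and 0.002 between genes. None of the 38 named results of an intron in a strain changed direction under these alternatives. Of these, 14 of 26 lost their call after subtraction of the other strains' mean, 9 of 38 under trend and robust moderation, 8 of 38 in the strain's own arrays, 5 of 38 with the block and 4 of 26 with centring. The difference between the medians of last and first introns changed sign between single arrays in Δctr1 (−0.35 and 0.04), smd3 (−0.04 and 0.29) and Δssu72 (−0.005 and 0.088), and the median difference of intron probes from genes with 2 to 5 introns went from −0.014 to 0.012 without the doubtful arrays.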

Other observations

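Of 405 probes for junctions that skip an exon, 109 lay in 51 of the genes with 6 or more introns. Limma called 0 of them in each of the 12 strains, where 0% of all skipping probes were called. At an unadjusted p under 0.05 the number ran from 1 to 22 (22 of 64 in Δctr1, against 83 of 254 for all such probes). The median log2 value of the 109 probes lay between −0.47 in Δctr1 (all skipping probes: −0.46) and 0.15 on the array labelled ΔSPCC162.01c (all skipping probes: 0.09).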
